A study of Mus musculus with 8 samples.

Results

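Livers of GlulΔlyz2 mice (KO) with LPS/D-GalN injury were compared with livers of Glulflox/flox mice (floxed) with the same injury, by bulk RNA sequencing of 2 libraries per group. The genes described are all those with at least 1 FPKM (fragments assigned to a gene, per kilobase of its length and scaled to the library total) in at least 2 of these 4 libraries. That rule gave 11483 genes, of 13708 genes tested over all 8 libraries of the series and 55416 genes in the deposited table. Injured mice of both genotypes had received 1 mg/kg lipopolysaccharide (LPS) and 200 mg/kg D-galactosamine (D-GalN) intraperitoneally, and uninjured KO and floxed mice, 2 libraries each, had received H2O by the same route. Both genotypes carry the floxed Glul allele, and in KO mice Glul is deleted where the Lyz2 locus drives Cre recombinase, so hepatocytes keep the gene. The labels do not say whether the floxed mice carry Cre. Nor do they say that the 2 libraries of a group are from different animals, and p-values therefore cover only the spread between these libraries. The sources used here give no strain, age, sex or time of collection after injection.

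Glul encodes glutamine synthetase, which makes glutamine from glutamate and ammonia. In the liver it is best known from hepatocytes next to the central vein, and macrophages also express it. LPS acts through Toll-like receptor 4 on Kupffer cells, the resident macrophages, and on incoming monocytes and neutrophils, which release tumour necrosis factor, interleukins and chemokines. D-GalN depletes uridine nucleotides in hepatocytes and so limits their RNA synthesis, which makes them die readily when tumour necrosis factor binds its receptor. Hepatocytes answer the same cytokines by secreting acute phase proteins. These processes served as the gene lists used below, together with lists of marker genes for the cell types of the liver.

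Fragment totals implied by the FPKM values were 24799145 and 21295003 in injured KO livers and 19516451 and 23578665 in injured floxed livers. Glul (ENSMUSG00000026473, chromosome 1) had 74.6 and 90.1 FPKM in injured KO livers, against 358 and 237 FPKM in injured floxed livers. The groups did not overlap, and the log2 difference was -1.82 ± 0.27 (adjusted p = 0.00135). Since the deletion is limited to Lyz2-expressing cells, the level in whole liver does not by itself check it. Lyz2, the lysozyme gene of myeloid cells whose locus carries Cre, had 39.9 and 32.7 FPKM in injured KO livers, against 15.9 and 24.5 FPKM in injured floxed livers. That log2 difference of 0.84 ± 0.41 did not pass the threshold (adjusted p = 0.118), although it did with voom (adjusted p = 0.0483). Alb, the albumin gene that marks hepatocytes, had 20026 and 22273 FPKM in injured KO livers, against 20858 and 20938 FPKM in injured floxed livers. The share of fragments from haemoglobin genes was 2.00% and 0.285% in injured KO livers, against 0.00447% and 0.00443% in injured floxed livers. That of mitochondrial genes was 10.4% and 12.6% in injured KO livers and 6.99% and 6.94% in injured floxed livers. Across genes, Pearson's r of log2(FPKM + 1) was 0.984 between the injured KO libraries and 0.991 between the injured floxed libraries.

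A total of 6875 of the 11483 members (59.9%) differed between injured KO and injured floxed livers at an adjusted p under 0.05 by limma, with 3318 (28.9%) higher and 3557 (31.0%) lower in injured KO livers. Over all 13708 genes tested the share was 52.5%. Differences are of log2(FPKM + 1), injured KO minus injured floxed, given with the standard error (SE). Of the called members 1949 were at least 2-fold higher and 1254 at least 2-fold lower, and 52 were at least 8-fold higher and 17 at least 8-fold lower, on that scale. The median over all members was -0.07. The balance of directions depends on the scaling: with each library rescaled to the same total FPKM, 2697 were higher and 4678 lower, so that 36.6% of the calls were higher instead of 48.3%, and the median member moved to -0.28. Of the members, 968 entered only through the injured KO libraries, and 882 of these were called. Another 785 entered only through the injured floxed libraries, and 673 of these were called. Of the other 9730, with at least 1 FPKM in at least 1 library of each group, 2436 were higher and 2884 lower. The libraries of the groups did not overlap for 9464 members (82.4%), with KO above floxed in 38.5% and below in 43.9%. At the edge of the rule, the second highest of the 4 values was 1.00097 FPKM for the gene just inside and 0.99927 FPKM for the gene just outside.

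**Figure D1:**
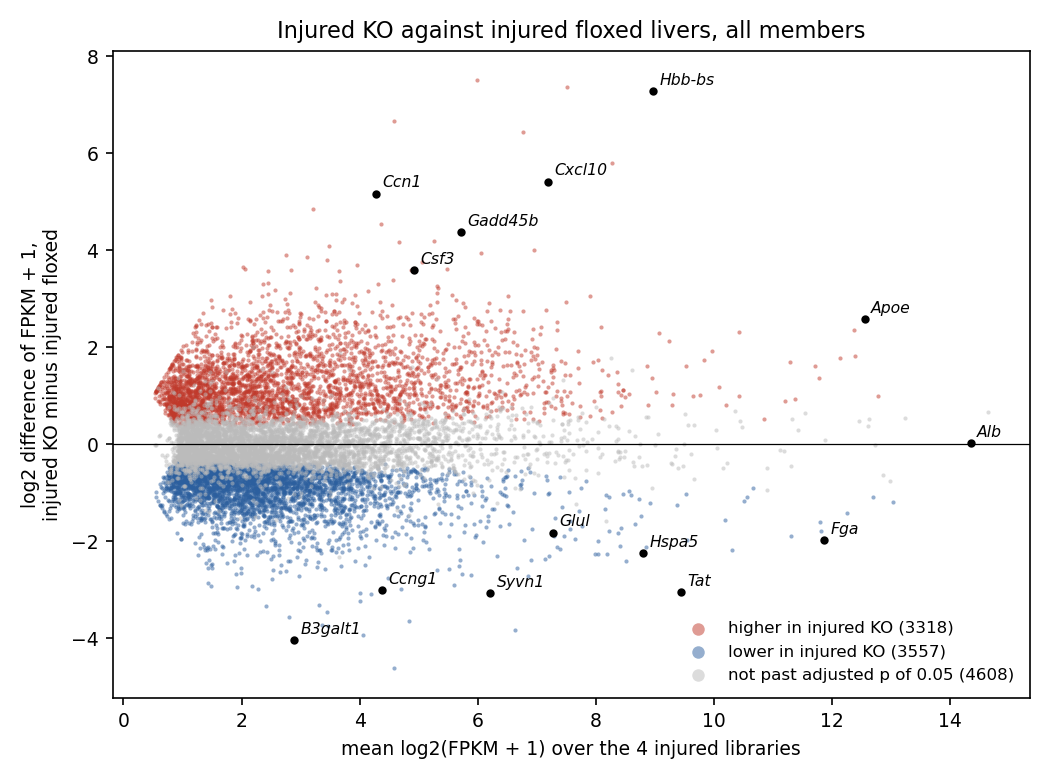
Each point is 1 of the 11483 members, by its mean log2(FPKM + 1) over the 4 injured libraries (x axis) and its log2 difference of FPKM + 1, injured KO minus injured floxed livers (y axis), with the 3318 genes that passed as higher in red, the 3557 lower in blue and the rest in grey. Haemoglobin, chemokine and immediate early genes lie at the top, Apoe and Fga are abundant genes that moved in opposite directions, and Alb lies at 0.02.

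The largest rises and falls were picked among called members whose groups did not overlap. The largest rises were in haemoglobin genes. Hbb-bs, a beta globin of red blood cells, had 15828 and 2499 FPKM in injured KO livers, against 40.2 and 37.9 FPKM in injured floxed livers. The KO libraries were both far above the floxed ones but differed from each other several-fold, and the difference was 7.29 ± 0.72 (adjusted p = 0.00034). Hbb-bt, Hba-a1 and Hba-a2, globin genes so alike that reads may be split among them, gave 7.51, 7.36 and 6.67. Next came the noncoding RNA 7SK (6.45), which has near-identical copies in the genome, and the chemokine Cxcl10 (5.42). Ccn1, a matricellular protein and target of the YAP pathway, had 163 and 82.6 FPKM in injured KO livers, against 2.28 and 2.23 FPKM in injured floxed livers, and the log2 difference was 5.17 ± 0.37 (adjusted p = 0.000146). Its values in the 2 KO libraries lay well above both floxed ones. Hilpda, a lipid droplet protein induced by hypoxia, gave 4.54. Gadd45b, a stress protein induced by NF-kB, had 333 and 169 FPKM in injured KO livers, against 10.1 and 11 FPKM in injured floxed livers, and the log2 difference was 4.37 ± 0.28 (adjusted p = 0.000129). G0s2, an inhibitor of triglyceride lipase, was 4.10 higher and Apold1, an endothelial early response gene, 3.90.

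Among the largest falls, B3galt1, a galactosyltransferase, had 0.890 and 0.767 FPKM in injured KO livers, against 35.7 and 23.4 FPKM in injured floxed livers. The log2 difference was -4.03 ± 0.24 (adjusted p = 9.49e-05). B3galt1 entered only through the injured floxed libraries, so the membership rule fixed which group was higher. Rnf103, a ubiquitin ligase of the endoplasmic reticulum, gave -3.64, Slc13a5, the citrate transporter of hepatocytes, -3.55, and Cldn2, a tight junction protein, -3.06. Tat, tyrosine aminotransferase of hepatocytes, had 129.6 and 449 FPKM in injured KO livers, against 2219.9 and 1823 FPKM in injured floxed livers, and the log2 difference was -3.05 ± 0.52 (adjusted p = 0.00228). Cyclin G1 (Ccng1), a p53 target, gave -3.01, and Gas6, a ligand of the receptors that let macrophages clear dead cells, -2.99. Reg3g and Reg3b, closely related secreted lectins, gave -2.95 and -2.92, and Nudt7, a peroxisomal hydrolase of coenzyme A, -2.91. Tspyl2 (-3.24), Zfp970 (-3.09) and the protease inhibitor gene Serpina3c (-3.32) of a family of near-identical copies, were lower too.

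Chemokine genes were higher in injured KO livers in 20 of 25 members and lower in 0, with a median log2 difference of 1.54 beside -0.07 over all members. Of these members 5 entered only through the injured KO libraries, which favours a higher level there, and such members are given below as KO-only entries. Cxcl10, which draws activated T cells and is induced by interferons, had 1073 and 847 FPKM in injured KO livers, against 21.5 and 21.1 FPKM in injured floxed livers. Both KO libraries exceeded both floxed libraries by a wide margin, and the log2 difference was 5.42 ± 0.36 (adjusted p = 0.00013). Cxcl11, a second ligand of the same receptor, had 25 and 22.7 FPKM in injured KO livers, against 1.15 and 0.984 FPKM in injured floxed livers, and the log2 difference was 3.59 ± 0.15 (adjusted p = 5.27e-05). Ccl2, which draws monocytes through its receptor Ccr2, had 327 and 209 FPKM in injured KO livers, against 15.5 and 16.4 FPKM in injured floxed livers, and the log2 difference was 3.95 ± 0.22 (adjusted p = 8.5e-05). Ccl7, another ligand of Ccr2, was 3.27 higher, the macrophage chemokine Ccl4 4.18 and Ccl19, which guides T cells and dendritic cells, 2.50. The neutrophil chemokine Cxcl2 had 284 and 93.1 FPKM in injured KO livers, against 7.85 and 8.10 FPKM in injured floxed livers, and the log2 difference was 4.19 ± 0.43 (adjusted p = 0.000367). Its relative Cxcl1 did not follow: it had 413 and 241 FPKM in injured KO livers, against 362 and 330.5 FPKM in injured floxed livers, with overlapping groups and a difference of -0.13 ± 0.25 (adjusted p = 0.697). The direction of Cxcl1 turned without injured KO replicate 2 (0.26). Ccr2 itself was not among the members. Summed over the list, chemokine genes reached 3508 and 2387 FPKM in injured KO livers and 803 and 731 FPKM in injured floxed livers.

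The promoter of Cxcl10 is shown because interferon and NF-kB motifs are among those searched. The window runs from 250 bases before to 50 after the start (RefSeq, chr5:92348840-92349139 of GRCm38.p6, minus strand), and capitals mark an ISRE-like motif, which is GAAA, any 2 bases and GAAA again, on either strand.
Cxcl10: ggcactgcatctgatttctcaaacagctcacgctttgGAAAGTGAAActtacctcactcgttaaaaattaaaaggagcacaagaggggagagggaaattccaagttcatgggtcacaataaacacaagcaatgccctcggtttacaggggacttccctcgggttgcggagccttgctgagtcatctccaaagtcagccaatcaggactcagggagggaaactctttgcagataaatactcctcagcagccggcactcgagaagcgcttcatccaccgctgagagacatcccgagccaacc
It also held 3 matches to the loose NF-kB-like motif (GGG, any 5 bases, CC), counted on both strands, some of them overlapping. That motif is common, in 50.8% of all windows, 66.3% of windows of members and 66.7% of those of the chemokine list. ISRE-like motifs were found in 18 of 36 windows of the interferon list, in 16.7% of those of the chemokine list and in 3.44% of all windows of the same length. A match describes letters in the window and no binding.

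Cytokine genes were higher in 18 of 21 members and lower in 1 (median 1.64, 7 KO-only entries). Csf3, the granulocyte growth factor, had 116 and 94 FPKM in injured KO livers, against 7.51 and 8.04 FPKM in injured floxed livers. Neither KO library came near the floxed values, and the log2 difference was 3.59 ± 0.14 (adjusted p = 4.05e-05). Il1b had 155 and 86.2 FPKM in injured KO livers, against 9.83 and 15.7 FPKM in injured floxed livers, and the log2 difference was 3.12 ± 0.49 (adjusted p = 0.00164). Il6 had 8.79 and 4.95 FPKM in injured KO livers, against 0.886 and 0.926 FPKM in injured floxed livers, and the log2 difference was 2.00 ± 0.22 (adjusted p = 0.000472). Tnf, which kills hepatocytes sensitised by D-GalN, had 19.9 and 15.9 FPKM in injured KO livers, against 4.44 and 5.67 FPKM in injured floxed livers, and the log2 difference was 1.64 ± 0.16 (adjusted p = 0.000351). In all 4 genes the KO libraries lay above both floxed libraries, as they did for 38.5% of all members. For Il6, a KO-only entry, the membership rule fixed that order. Lymphotoxin beta (Ltb) was 2.31 higher, the interleukin subunit Ebi3 2.21, the macrophage growth factor Csf1 1.99 and Il11 1.83. The single fall was Il33 (-1.66 ± 0.15, adjusted p = 0.000264), an alarmin held in nuclei.

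Of 24 members of the NF-kB list 16 were higher and 1 lower (median 0.78, 1 KO-only entry), among them the subunits Nfkb1 (2.13), Relb (2.32) and Nfkb2 (1.86) and the inhibitors Nfkbia (2.42) and Tnip1 (2.34). Without injured floxed replicate 1 the higher count of that list was 10. The fall was Lbp, the LPS-binding protein that hepatocytes secrete, with 34.6 and 28.9 FPKM in injured KO livers, against 74.1 and 81.2 FPKM in injured floxed livers, and the log2 difference was -1.27 ± 0.17 (adjusted p = 0.000831). Interferon response genes were higher in 19 of 39 members and lower in 1 (median 0.42), with the transcription factor Irf8 at 2.55, the antiviral GTPases Mx2 at 2.14 and Mx1 at 1.78, and the peptide transporter Tap1 at 2.05. The lower count of that list was 4 when the second injured KO library was left out and 0 when the first injured floxed library was. Immediate early genes, the first to respond to a stimulus, were higher in 26 of 28 members and lower in 0, with a median of 2.20 and 3 KO-only entries. Fos, a subunit of AP-1, had 46.8 and 22 FPKM in injured KO livers, against 1.42 and 1.14 FPKM in injured floxed livers, and the log2 difference was 3.87 ± 0.34 (adjusted p = 0.000254). Atf3 had 97.9 and 104 FPKM in injured KO livers, against 6.76 and 8.15 FPKM in injured floxed livers, and the log2 difference was 3.60 ± 0.17 (adjusted p = 7.82e-05). Ier2 (3.62), the phosphatases Dusp5 (3.19) and Dusp2 (2.28), Maff (2.91) and Klf2 (2.43) were also higher. The list summed to 2437 and 1744 FPKM in injured KO livers, against 489 and 494 FPKM in injured floxed livers.

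Most member genes of each leukocyte list were higher in injured KO livers. In bulk tissue more cells of a type cannot be told apart from more RNA per cell. Neutrophil genes were higher in 26 of 27 members and lower in 1 (median 1.82, 7 KO-only entries). S100a8, a subunit of calprotectin, had 179 and 224 FPKM in injured KO livers, against 19.8 and 33.7 FPKM in injured floxed livers, and the log2 difference was 2.91 ± 0.28 (adjusted p = 0.000298). The NADPH oxidase subunits Ncf1 and Ncf4 gave 1.97 and 1.99, the decoy receptor Il1r2 2.31, Retnlg 2.52, and the neutrophil genes Asprv1 and Stfa2l1 2.36 and 2.25. The fall was Lcn2, which hepatocytes also make as an acute phase protein, with 686 and 1402 FPKM in injured KO livers, against 2191 and 2187 FPKM in injured floxed livers and a difference of -1.16 (adjusted p = 0.0158; 0.00146 to 0.0695 over the other settings). It did not pass without injured floxed replicate 1 (adjusted p = 0.0695) or 2 (0.0658), nor with no filter (0.0575) or with the 4 injured libraries fitted alone (0.0665). Monocyte and recruited macrophage genes were higher in 20 of 23 members, with the receptor Trem1 at 1.99, the matrix protein Thbs1 at 3.57, the lectin Clec4d at 2.22, the IgG receptor Fcgr1 at 1.79 and S100a6 at 2.31. The 1 fall was fibronectin, Fn1 (-1.98), which hepatocytes also secrete. Another 9 genes of that list, Ccr2 among them, were not members.

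Kupffer cell genes were higher in 13 of 16 members and lower in 1 (median 1.63, 2 KO-only entries). Clec4f, a lectin found on Kupffer cells in mice, had 59.4 and 28.3 FPKM in injured KO livers, against 6.80 and 8.89 FPKM in injured floxed livers, and the log2 difference was 2.26 ± 0.36 (adjusted p = 0.00168). The complement subunits C1qa, C1qb and C1qc gave 2.25, 2.33 and 2.22, the transcription factors Id3 and Spic 2.54 and 1.49, the scavenger protein Cd5l 1.64 and the macrophage marker Adgre1 1.15. The fall was complement C6 (-0.97), also a product of hepatocytes. The summed level of the list was 829 and 477 FPKM in injured KO livers and 177 and 230.1 FPKM in injured floxed livers. Under H2O it was 279.9 and 316 FPKM in KO livers and 435 and 515 FPKM in floxed livers, so the order of the genotypes was the opposite there. Macrophage activation genes were higher in 16 of 18 members (median 1.61, 4 KO-only entries), including Nos2 (2.72), which makes nitric oxide, Acod1 (2.58), which makes itaconate, the checkpoint ligand Cd274 (2.43), Cd40 (1.81), Slamf7 (1.38) and the cytokine signalling inhibitor Socs1 (1.71).

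Lymphocyte genes were low in level, and many of them were not members. For T and NK cells 8 of 24 listed genes were members, 5 of them only through the injured KO libraries, and all 8 were higher. The granzyme Gzmb had 20.0 and 16.5 FPKM in injured KO livers, against 2.64 and 3.78 FPKM in injured floxed livers, and the log2 difference was 2.20 ± 0.19 (adjusted p = 0.000242). Gzma (1.40), Ccl5 (2.48), the kinase Lck (1.49) and the receptor chain Il2rb (1.36) were higher too. For B cells 10 of 11 members, 5 of them KO-only entries, were higher, with the receptor subunit Cd79a at 2.20 and the immunoglobulin constant region Igkc at 2.28. H2-Ab1 (1.78) and Cd74 (1.56) of that list present antigen in other cells as well. The dendritic cell list had 3 members of 12 listed genes, 2 of them KO-only entries, and Fscn1, Batf3 and Ccr7 gave 1.85, 2.03 and 1.61. Beside the cytokine and chemokine differences, the summed levels in injured KO livers were 2578 and 3143 FPKM for neutrophil genes, 702 and 536 FPKM for monocyte genes and 308 and 217 FPKM for T and NK cell genes. In injured floxed livers they were 2570.1 and 2686, 403 and 444 and 39.4 and 58 FPKM for the same lists. Without Lcn2, the member that fell, neutrophil genes summed to 1892 and 1742 FPKM in injured KO livers and 379.3 and 499.5 FPKM in injured floxed livers. Leaving out the only member that fell favours a higher sum in injured KO livers. The part of these cells in the cytokine and chemokine results was not tested.

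Genes of the vessel wall were higher in injured KO livers. Of 21 sinusoidal endothelial members 18 were higher and 0 lower (median 1.24, 5 KO-only entries). Cdh5, the cadherin that joins endothelial cells, had 57.9 and 36.9 FPKM in injured KO livers, against 5.14 and 7.41 FPKM in injured floxed livers, and the log2 difference was 2.72 ± 0.24 (adjusted p = 0.000238). The scavenger receptor Stab1 gave 2.53, Lyve1 2.23, the nuclease Dnase1l3 2.18 and endoglin (Eng) 1.75. Of 19 genes of endothelial activation and clotting control 16 were higher and 0 lower (median 1.94, 6 KO-only entries). F3, tissue factor, which starts clotting, had 20.5 and 13.1 FPKM in injured KO livers, against 0.588 and 0.890 FPKM in injured floxed livers, and the log2 difference was 3.33 ± 0.23 (adjusted p = 0.000135). It was one of the KO-only entries. Thrombomodulin (Thbd), which restrains clotting, had 31.8 and 20.3 FPKM in injured KO livers, against 2.63 and 2.59 FPKM in injured floxed livers, and the log2 difference was 2.87 ± 0.20 (adjusted p = 0.000135). Plaur, the urokinase receptor, gave 2.76, Angpt2, which loosens vessels, 1.94, and Icam2 2.16.

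Platelet genes were higher in all 7 members, 5 of which entered only through the injured KO libraries, with Ppbp at 2.72, Pf4 at 2.57 and the integrin subunit Itga2b at 2.06. Red blood cell genes were higher in 8 of 12 members, 2 of them KO-only entries, and lower in 0. Without injured floxed replicate 1 the count was 5. Summed red blood cell levels were 26246 and 3775 FPKM in injured KO livers and 119 and 122 FPKM in injured floxed livers, so the 2 KO libraries differ far more from each other here than in the leukocyte lists. Platelet levels followed the same order, with 91.9 and 30.3 FPKM in injured KO livers and 5.09 and 5.94 FPKM in injured floxed livers. The part of blood in the leukocyte and endothelial differences was not tested. Without injured KO replicate 1, the library with more haemoglobin, 25 neutrophil, 18 chemokine, 12 Kupffer cell and 15 sinusoidal endothelial members were higher.

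Stellate cell and fibroblast genes were higher in 14 of 22 members (3 KO-only entries) and lower in 0, and in 8 without injured floxed replicate 2. Timp1, an inhibitor of matrix proteases, gave 1.77, smooth muscle actin (Acta2) 1.83, vimentin (Vim) 1.83 and Ecm1 2.48. Cholangiocyte genes were higher in 7 of 12 members (4 KO-only entries), with Sox9 at 1.52, keratin 19 (Krt19) at 0.96, Cldn4 at 1.68 and Anxa2 at 1.69. Targets of YAP and matricellular genes were higher in 11 of 16 members (5 KO-only entries), with Ccn2 at 2.51, the growth factor Ereg at 2.01, the activin subunit Inhbb at 2.71 and Tgfb1 at 2.09. The activin antagonist Fst was lower (-2.09).

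**Figure D2:**
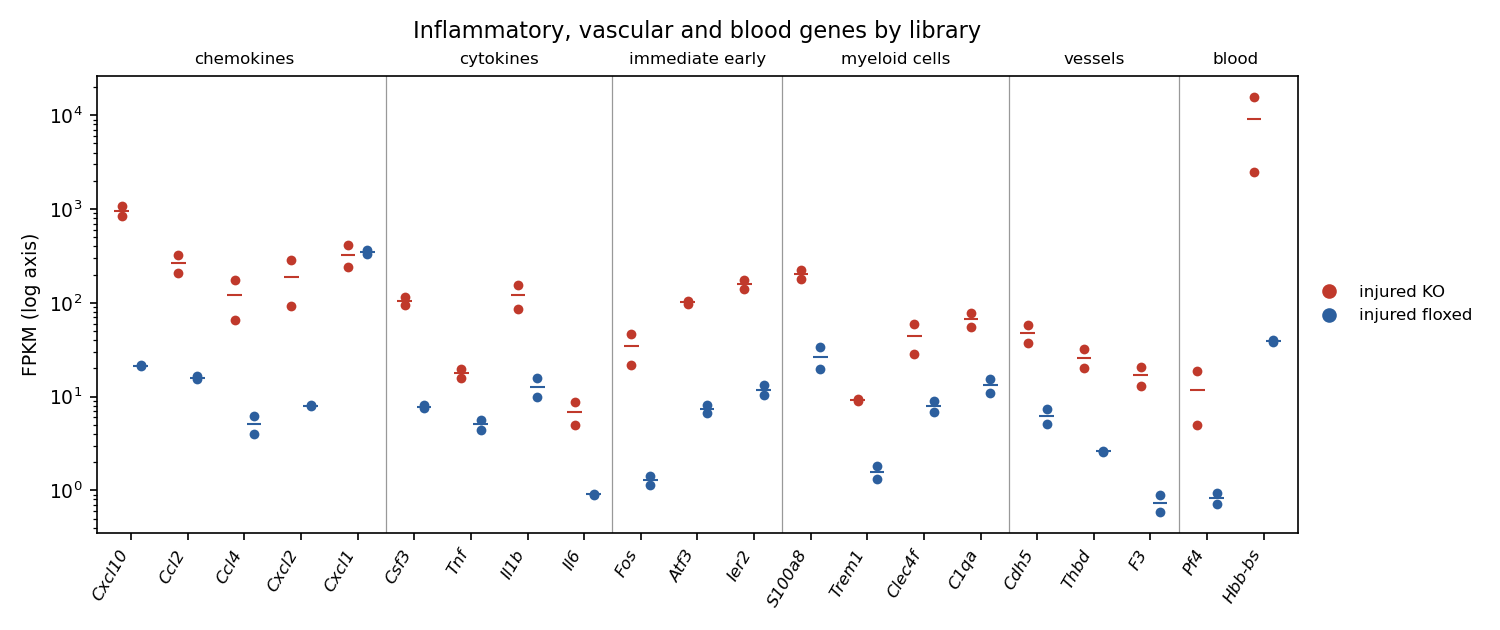
Each point is the FPKM of 1 gene in 1 library on a log axis, with injured KO livers in red on the left and injured floxed livers in blue on the right of each gene, and a bar at the mean of the 2 libraries. The KO points lie above the floxed points in every gene drawn but Cxcl1, and the 2 KO libraries are farthest apart in Hbb-bs and Pf4. For KO-only entries such as Il6 and F3 the membership rule fixed that order.

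Genes of cell death were divided. Of 34 members of the list for TNF and death receptor signalling 14 were higher and 6 lower, with 3 KO-only entries and 2 that entered only through the injured floxed libraries. The lower count was 10 with each library rescaled to the same total, 3 without injured KO replicate 1, and 3 and 2 without injured floxed replicate 1 and 2. The survival proteins Birc3 (1.93) and Traf1 (1.42) and the necroptosis kinase Ripk3 (1.68) were higher, and the adaptor Fadd (-0.85) and the death receptor Tnfrsf10b (-1.80) lower. Inflammasome and pyroptosis genes were higher in 8 of 10 members (1 KO-only entry), with the sensors Nlrp3 at 1.86 and Mefv at 1.59 and the caspase Casp4 at 1.26. Nlrp12, an inhibitor of inflammatory signalling, had 4.67 and 5.55 FPKM in injured KO livers, against 22.4 and 23.9 FPKM in injured floxed livers, and the log2 difference was -1.98 ± 0.17 (adjusted p = 0.000235). Targets of p53 were mostly lower, in 11 of 20 members (2 in only through the injured floxed libraries) against 4 higher, and in 7 without injured floxed replicate 2. The higher count was 2 when either injured floxed library was left out. Ccng1 had 5.76 and 6.97 FPKM in injured KO livers, against 59.1 and 57.1 FPKM in injured floxed livers, and the log2 difference was -3.01 ± 0.15 (adjusted p = 8.18e-05). Zmat3 (-1.16) and Eda2r (-1.25) were lower too, while Pmaip1, a death-promoting BCL2 relative, was higher (1.27). The other higher members of the p53 list were Gadd45b, Gadd45a and Gdf15. In that list 55.0% were lower and 20.0% higher, beside 31.0% and 28.9% over all members. Its summed level went the other way, with 1807 and 1617 FPKM in injured KO livers and 933 and 978 FPKM in injured floxed livers. Cdkn1a, the cell cycle inhibitor p21, had 69.3 and 70.2 FPKM in injured KO livers, against 112 and 112 FPKM in injured floxed livers and a difference of -0.67 ± 0.19 (adjusted p = 0.0183; 0.00277 to 0.0749 over the other settings). It did not pass when any 1 of the 4 injured libraries was left out, with log2 differences of -0.66 and -0.68 without an injured KO library and -0.68 and -0.67 without an injured floxed one.

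Acute phase genes, the secretory response of hepatocytes to cytokines, were lower in injured KO livers in 21 of 33 members and higher in 2, with a median of -1.09. Fga, the fibrinogen alpha chain, had 1628 and 2192 FPKM in injured KO livers, against 7438 and 7407 FPKM in injured floxed livers. The log2 difference was -1.97 ± 0.38 (adjusted p = 0.0038). Fgb, the beta chain, had 1536 and 2448 FPKM in injured KO livers, against 6783 and 6548 FPKM in injured floxed livers, and the log2 difference was -1.78 ± 0.29 (adjusted p = 0.00197). Orm1, orosomucoid, had 1569 and 2646 FPKM in injured KO livers, against 6182 and 6167 FPKM in injured floxed livers, and the log2 difference was -1.60 ± 0.30 (adjusted p = 0.00335). Serpina3n, a protease inhibitor with near-identical neighbours, had 982 and 1797 FPKM in injured KO livers, against 4755 and 5013 FPKM in injured floxed livers, and the log2 difference was -1.88 ± 0.37 (adjusted p = 0.00411). Steap4, a metalloreductase, gave -2.18, serum amyloid P (Apcs) -2.26, the inhibitor heavy chain Itih3 -2.11, and Serpina10 and Serpina3m -2.36 and -2.40. The 2 that were higher, Il1rn (1.10) and Socs3 (1.10), are also made by leukocytes. Saa1, serum amyloid A, had 927 and 1506 FPKM in injured KO livers, against 2026 and 2423 FPKM in injured floxed livers, and its difference of -0.91 ± 0.32 had an adjusted p of 0.047 (0.0185 to 0.247 over the other settings). It missed the threshold in 11 of the 23 other settings, among them the replicate block (adjusted p = 0.0545), median centring (0.0697) and no filter (0.13). Among fits with 1 library left out it did not pass without injured KO replicate 1 (-0.56, adjusted p = 0.247), nor when the first (-1.04, 0.0997) or the second injured floxed library (-0.78, 0.188) was left out. The list summed to 26839 and 40803 FPKM in injured KO livers and 75288 and 78406 FPKM in injured floxed livers.

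In the list of other plasma proteins made by hepatocytes 15 of 33 members were higher and 6 lower, and 9 were higher without injured floxed replicate 1. The lower count was 3 when either injured floxed library was left out. Apoe, the apolipoprotein of remnant particles that macrophages also make, had 16278 and 13382 FPKM in injured KO livers, against 2236 and 2700.1 FPKM in injured floxed livers, and the log2 difference was 2.59 ± 0.23 (adjusted p = 0.000264). Apoa2, of high-density lipoprotein, had 12824 and 11338 FPKM in injured KO livers, against 2137 and 2599 FPKM in injured floxed livers, and the log2 difference was 2.35 ± 0.22 (adjusted p = 0.000294). Apoa1 gave 1.83, Apoc1 2.32, Apoc3 1.92, the retinol carrier Rbp4 1.74 and the intracellular fatty acid carrier Fabp1 1.62. Apob, whose messenger RNA is far longer than these, was lower (-1.30 ± 0.19), as were the clotting factors F5 (-0.91) and F9 (-0.93). The difference in Alb was 0.02 ± 0.25 (adjusted p = 0.968), and after quantile normalisation it was -0.65 with an adjusted p of 0.0347. Its direction also turned without injured KO replicate 2 (-0.06).

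Genes that fold and degrade secretory proteins were lower in injured KO livers. Of 24 members of the list for the unfolded protein and integrated stress response 14 were lower and 3 higher, and the median of -1.20 was the lowest of the 43 lists. Syvn1, the ubiquitin ligase that removes misfolded proteins from the endoplasmic reticulum, had 15.7 and 38.9 FPKM in injured KO livers, against 219 and 209 FPKM in injured floxed livers. The KO and floxed libraries were far apart, and the log2 difference was -3.06 ± 0.39 (adjusted p = 0.000719). Hspa5, the main chaperone of that compartment, had 158 and 263 FPKM in injured KO livers, against 1014 and 936 FPKM in injured floxed livers, and the log2 difference was -2.25 ± 0.45 (adjusted p = 0.00457). Hsp90b1, another chaperone, had 118 and 149 FPKM in injured KO livers, against 628 and 649 FPKM in injured floxed livers, and the log2 difference was -2.26 ± 0.23 (adjusted p = 0.000359). Dnajb9, a cochaperone, had 15.3 and 26.6 FPKM in injured KO livers, against 157 and 115 FPKM in injured floxed livers, and the log2 difference was -2.67 ± 0.38 (adjusted p = 0.00102). The disulfide isomerase Pdia4 gave -2.38, Edem1, which marks glycoproteins for degradation, -2.22, and the stress sensor Atf6 -1.18. The 3 higher members were Ppp1r15a, which restores translation after stress (2.48), Atf4 and Trib3. The higher count was 1 without injured floxed replicate 1. In H2O-treated livers the list's median was 0.01.

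The promoters of 4 of the lower genes are shown because each holds the endoplasmic reticulum stress element (ERSE), which is CCAAT, any 9 bases and CCACG, on either strand, marked in capitals. This motif and the genes that hold it were chosen after the values were seen. Windows are from RefSeq on GRCm38.p6, an older build than the GRCm39 of the expression table: Syvn1 chr19:6046326-6046625 (plus strand), Derl3 chr10:75893148-75893447 (plus), Hsp90b1 chr10:86705395-86705694 (minus) and Hspa5 chr2:34771840-34772139 (plus).
Syvn1: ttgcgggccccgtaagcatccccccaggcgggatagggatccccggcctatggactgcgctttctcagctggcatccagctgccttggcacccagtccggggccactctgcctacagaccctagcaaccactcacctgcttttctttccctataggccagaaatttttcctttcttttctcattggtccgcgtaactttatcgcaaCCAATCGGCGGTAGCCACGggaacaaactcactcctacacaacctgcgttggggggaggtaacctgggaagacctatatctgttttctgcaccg
Derl3: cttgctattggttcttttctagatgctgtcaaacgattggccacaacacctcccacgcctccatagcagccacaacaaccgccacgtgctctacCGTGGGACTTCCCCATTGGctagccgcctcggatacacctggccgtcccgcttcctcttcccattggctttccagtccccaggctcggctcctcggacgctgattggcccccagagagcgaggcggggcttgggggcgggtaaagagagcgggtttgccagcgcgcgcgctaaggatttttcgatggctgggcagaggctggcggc
Hsp90b1: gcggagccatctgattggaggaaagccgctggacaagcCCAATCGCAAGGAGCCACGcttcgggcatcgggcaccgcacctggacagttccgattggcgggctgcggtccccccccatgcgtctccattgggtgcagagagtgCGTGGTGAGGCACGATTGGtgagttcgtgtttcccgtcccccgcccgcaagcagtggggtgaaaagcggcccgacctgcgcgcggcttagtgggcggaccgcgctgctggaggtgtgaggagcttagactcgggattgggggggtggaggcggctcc
Hspa5: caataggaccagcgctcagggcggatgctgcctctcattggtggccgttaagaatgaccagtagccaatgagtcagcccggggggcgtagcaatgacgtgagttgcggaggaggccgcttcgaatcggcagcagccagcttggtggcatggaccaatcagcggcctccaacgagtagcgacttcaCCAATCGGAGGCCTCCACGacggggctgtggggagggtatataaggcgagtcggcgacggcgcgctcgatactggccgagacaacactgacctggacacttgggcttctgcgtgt
Derl3, which helps to extract misfolded proteins from the endoplasmic reticulum, had 1.21 and 1.15 FPKM in injured KO livers, against 15.4 and 12.6 FPKM in injured floxed livers, and the log2 difference was -2.77 ± 0.52 (adjusted p = 0.00328). Of the 17 members whose window holds the motif, 13 were lower and 1 was higher in injured KO livers, where 31.0% of all members were lower and 28.9% higher. That is 0.394% of the windows of lower members and 0.0345% of those of higher members, against 0.164% of windows of all members and 0.119% of all windows. Among those lower were the chaperones Calr (-1.64), Canx (-1.02) and Dnajc3 (-1.66), the oxidase Ero1b (-1.16) and Creld2 (-2.30). When injured KO replicate 2 was left out the adjusted p of Canx was 0.0584, when injured floxed replicate 1 was left out it was 0.0679, and that of Creld2 was 0.0671 when injured KO replicate 1 was left out. The 1 that was higher was Acacb (0.93), which makes malonyl-CoA. No match says only that the letters are absent from a window.

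Transcription factors of hepatocytes were lower in 11 of 18 members and higher in 2 (median -0.79). Rxra, the partner of many nuclear receptors, had 9.70 and 19.7 FPKM in injured KO livers, against 59.6 and 52.7 FPKM in injured floxed livers, and the log2 difference was -1.94 ± 0.30 (adjusted p = 0.00159). The bile acid receptor Nr1h4 gave -1.28, and Ppara, which drives fatty acid oxidation, -1.42. Cebpb, which drives acute phase genes, was higher (1.26). The higher count of the list was 4 without injured KO replicate 2 and 1 without any 1 of the other injured libraries. The groups did not overlap in any of these 4 genes, nor in 82.4% of all members.

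Lipid and cholesterol synthesis genes were lower in 13 of 28 members and higher in 3. The lower count was 8 when injured KO replicate 1 was left out, 8 when the first injured floxed library was, and 7 when the second was. The higher count was 1 without injured KO replicate 1, injured floxed replicate 1 or either H2O-treated floxed library. Sqle, squalene epoxidase, had 1.53 and 1.48 FPKM in injured KO livers, against 14.8 and 14.4 FPKM in injured floxed livers, and the log2 difference was -2.64 ± 0.21 (adjusted p = 0.000182). Idi1 (-2.17), Lss (-1.46) and Hmgcs1 (-1.35) of the same pathway were lower. Genes of fatty acid oxidation were divided, with 8 of 22 higher and 3 lower (36.4% and 13.6%, beside 28.9% and 31.0% over all members). Cpt1a, which lets fatty acids into mitochondria, and the regulator Ppara were among those that fell, and Cpt1a gave -1.88. Bile acid genes were higher in 2 and lower in 4 of 16 members (12.5% and 25.0%). Baat, which conjugates bile acids, gave -2.72, and Cyp8b1, which sets their type, 2.18. Without injured floxed replicate 2 the higher count was 1. Cyp7a1, which starts bile acid synthesis, was not a member, and its difference among all genes tested was 0.09 (adjusted p = 0.781).

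Cytochrome P450 genes were higher in 6 and lower in 6 of 24 members, 25.0% each, near the 28.9% and 31.0% over all members. The higher count was 3 when any 1 of the 4 floxed libraries was left out, and the lower count was 3 without injured floxed replicate 1. Cyp2a5 was higher (1.44), Cyp3a13 (-1.97) and Cyp2c70 (-1.73) were lower, and Cyp2e1 had 817 and 1143 FPKM in injured KO livers, against 1363 and 1328 FPKM in injured floxed livers with a difference of -0.48 ± 0.29 (adjusted p = 0.203). Urea cycle genes were higher in 4 and lower in 2 of 11 members (36.4% and 18.2%). Without injured floxed replicate 1 they were 2 and 1, without injured KO replicate 1 the higher count was 2, and without injured floxed replicate 2 the lower count was 1. Arg2, the mitochondrial arginase, was higher (1.51), as was the carbonic anhydrase Car5a (1.71), and the ornithine carrier Slc25a15 was lower (-1.27). Cps1, which starts the cycle, had 149 and 161 FPKM in injured KO livers, against 217 and 227 FPKM in injured floxed livers and did not pass (-0.52 ± 0.30, adjusted p = 0.181), although it did without H2O-treated KO replicate 1 (adjusted p = 0.0301) or 2 (0.0302), in a range of 0.0276 to 0.437 over the other settings. Genes of gluconeogenesis and glycogen were lower in 5 of 16 members and higher in 2, and lower in 3 when the first injured KO or the first injured floxed library was left out, with 1 higher in both fits. In the main fit that list had 31.2% lower, near the 31.0% over all members, and 12.5% higher, beside 28.9%. The regulators Foxo1 (-0.87) and Creb3l3 (-1.07) were lower and the glucose transporter Slc2a2 was higher (1.16).

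Genes of glycolysis and hypoxia were higher in 16 of 24 members and lower in 1 (median 1.01, 5 KO-only entries). The lactate carrier Slc16a3, a KO-only entry, had 10.5 and 8.72 FPKM in injured KO livers, against 0.578 and 0.965 FPKM in injured floxed livers, and the log2 difference was 2.59 ± 0.17 (adjusted p = 0.000129). Adrenomedullin (Adm) gave 3.80, the glucose transporter Slc2a1 2.48, hexokinase 1 (Hk1) 1.73 and pyruvate kinase M (Pkm) 2.42, isoforms that hepatocytes hold at low level, while Bnip3 was lower (-0.94). Hif1a had 25.4 and 20.9 FPKM in injured KO livers, against 31.3 and 20.2 FPKM in injured floxed livers and did not pass (-0.12, adjusted p = 0.685), and its direction turned without injured KO replicate 2 (0.02) or injured floxed replicate 1 (0.18). Redox genes under NRF2 were higher in 9 of 19 members and lower in 2. The higher count was 5 without injured floxed replicate 1, and the lower count 1 without any 1 of 7 libraries, the exception being injured KO replicate 2. Haem oxygenase 1 (Hmox1) had 185 and 121 FPKM in injured KO livers, against 37 and 42 FPKM in injured floxed livers, and the log2 difference was 1.90 ± 0.24 (adjusted p = 0.000735). Ferritin heavy chain (Fth1) was 1.61 higher, and Txnrd1, thioredoxin reductase, was lower (-0.87). Clock genes were higher in 4 and lower in 6 of 16 members (25.0% and 37.5%, beside 28.9% and 31.0% over all members). Nr1d1 was higher (3.31), as were Npas2, Nfil3 and Bhlhe40. The related transcription factors Tef (-1.72) and Hlf (-0.84) were lower.

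Around Glul itself, 8 of 21 enzymes that make or use glutamine and glutamate were lower and 3 higher, and the lower count was 5 without injured floxed replicate 1 and the higher count 1 without injured floxed replicate 2. In the main fit 38.1% of these enzymes were lower and 14.3% higher, beside 31.0% and 28.9% over all members. Gfpt1, which spends glutamine on hexosamines, had 1.57 and 1.43 FPKM in injured KO livers, against 11.6 and 9.79 FPKM in injured floxed livers. The groups were well apart, and the log2 difference was -2.22 ± 0.19 (adjusted p = 0.000243). The purine enzymes Gmps (-1.47) and Pfas (-0.79) and the alanine aminotransferase Gpt2 (-1.48) were lower, and its relative Gpt higher (1.41). Of 11 glutamine and amino acid transporters 4 were higher (36.4%), among them the glutamine carrier Slc1a5 (1.08) and the shared subunit Slc3a2 (1.20), and 1, Slc7a6 (-0.99), was lower (9.09%). Of 15 genes of the pericentral zone, where hepatocytes hold Glul, 4 were higher and 3 lower, Glul included. Those shares, 26.7% and 20.0%, were under the 28.9% and 31.0% over all members. Notum, a Wnt inhibitor, was higher (1.42), and Tbx3 (-0.84) and Znrf3 (-0.67), also Wnt targets, were lower. The higher count was 2 and 1 when the first or second injured KO library was left out, and 1 and 2 when the first or second injured floxed library was. The median over that list was 0.32.

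**Figure D3:**
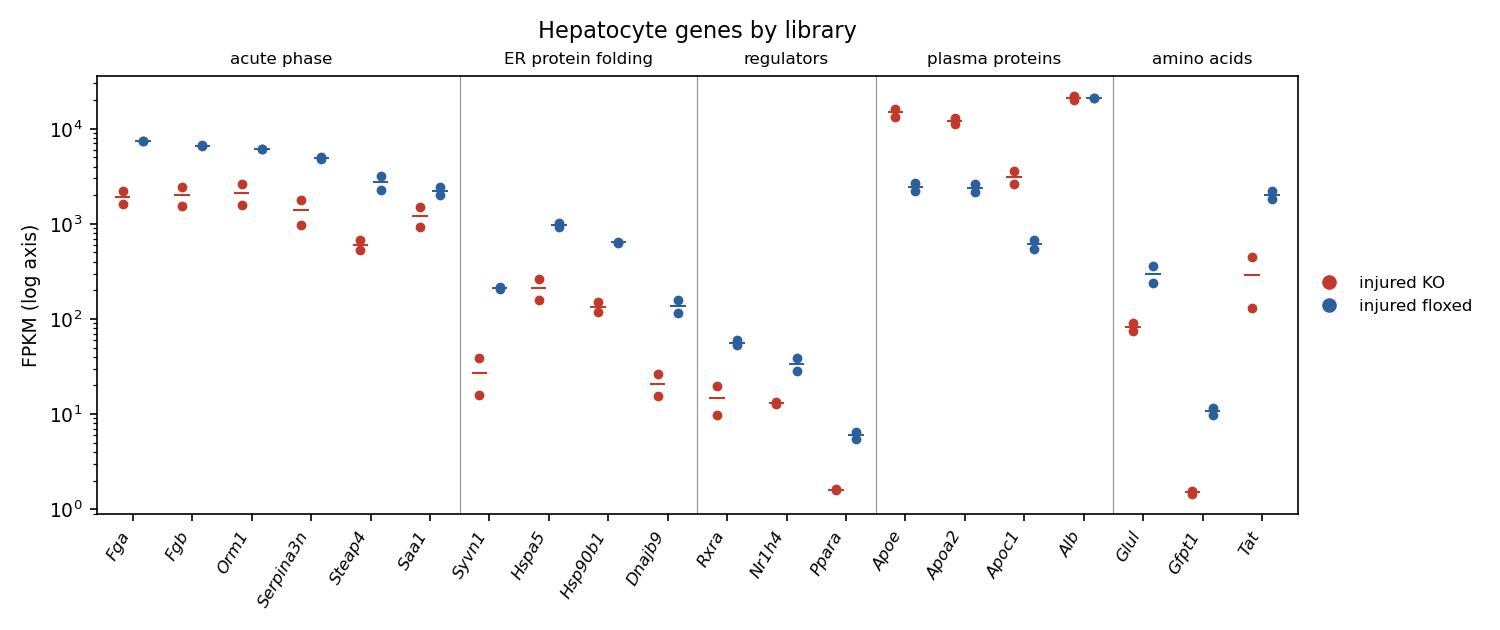
Each point is the FPKM of 1 hepatocyte gene in 1 library on a log axis, with injured KO livers in red on the left and injured floxed livers in blue on the right of each gene, and a bar at the mean of the 2 libraries. KO points lie below floxed points in the acute phase, endoplasmic reticulum and regulator genes, above them in Apoe, Apoa2 and Apoc1, and at the same level in Alb.

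**Figure D4:**
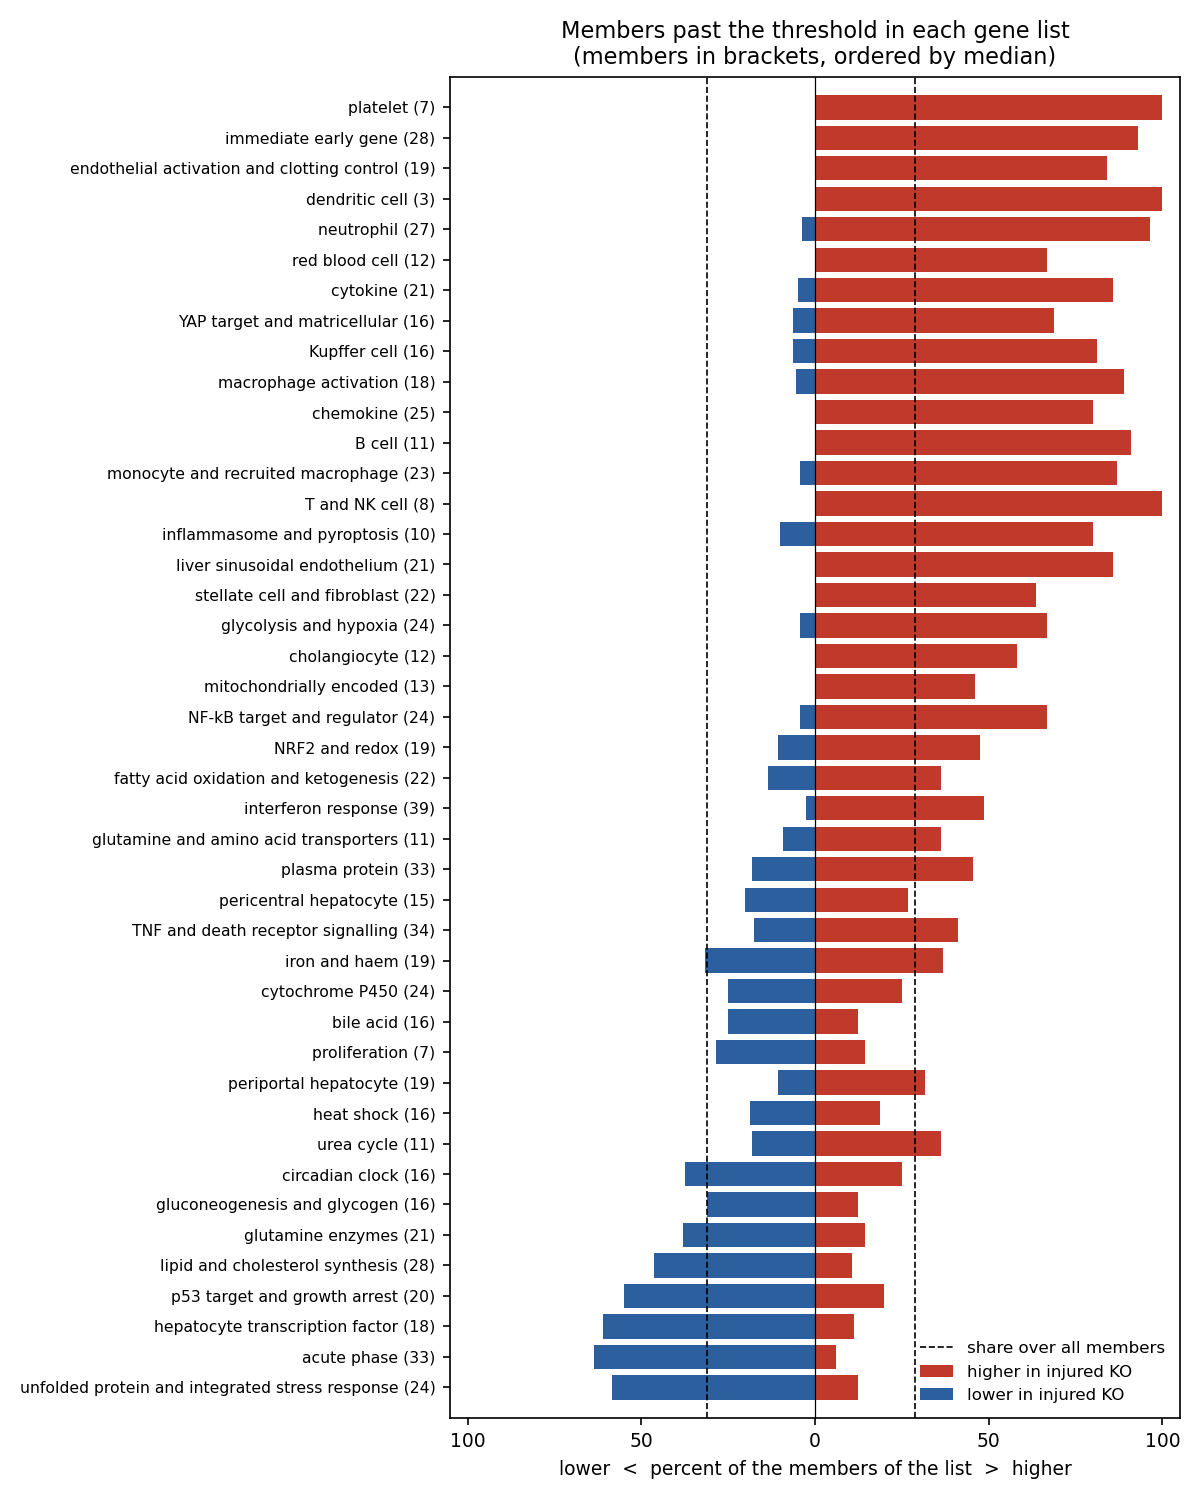
Bars give, for each of 43 gene lists, the percent of its members that were higher (red, right) or lower (blue, left) in injured KO livers, relative to injured floxed livers, at an adjusted p under 0.05, ordered by median log2 difference, with the number of members in brackets. Dashed lines mark the shares over all members, 28.9% higher and 31.0% lower, and lists of leukocyte, vessel, cytokine and early genes lie above those of hepatocyte function.

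The differences also varied with gene length. Over 9835 protein-coding members with a known summed exon length, Spearman's rho between length and the log2 difference was -0.32 under injury and 0.02 under H2O, as a description across genes of the same libraries. The median log2 difference under injury was 0.61 in the shortest of 5 length classes of about equal size, then 0.06, -0.18 and -0.29, and -0.39 in the longest class. In the shortest class 50.5% were higher and 13.3% lower, and in the longest 13.2% were higher and 46.3% lower. Both KO libraries showed it, with rho of -0.32 and -0.31 against the mean of the injured floxed libraries. The sources used here give no RNA quality values. The ribosomal RNAs Rn18s, mt-Rnr1 and mt-Rnr2 were among the 10 largest rises by FPKM in injured KO livers. Mitochondrial transfer RNAs were higher in 10 of 17 members and lower in 0. Of 9 members annotated as other ribosomal RNA 1 was higher and 3 were lower. The part of RNA make-up in the differences was not tested. With the trend on length removed, 6425 members were called, 3466 higher and 2959 lower, and 5621 of them were called before. The part of length in each gene's difference was not tested beyond that fit.

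**Figure D5:**
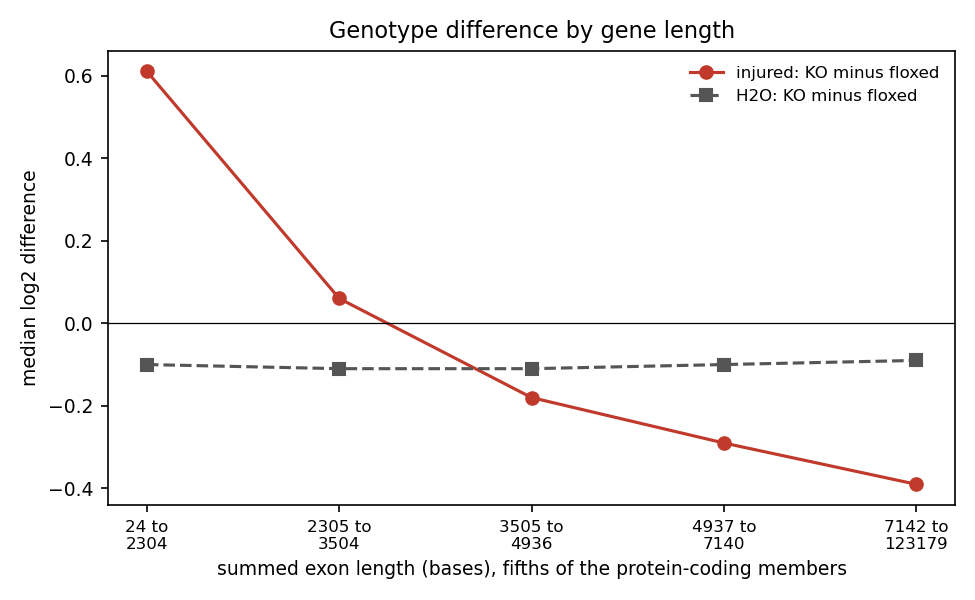
Points give the median log2 difference, KO minus floxed, of protein-coding members in 5 classes of summed exon length in bases (x axis), for injured livers (red circles) and H2O-treated livers (grey squares). Under injury the median is 0.61 in the shortest and -0.39 in the longest genes, and under H2O it is near -0.10 in every class.

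In uninjured livers few genes passed between the same genotypes. Under H2O 1 of the 11483 members (0.00871%, and 0.0073% of all genes tested) passed with limma, against 595 at an unadjusted p under 0.05 and 14 by voom. It was Oas2, an antiviral enzyme of the interferon response, with a log2 difference of -1.69 ± 0.14 (adjusted p = 0.0349), and 0 members passed without any 1 of 7 libraries, the exception being H2O-treated KO replicate 1. Under injury Oas2 was higher in KO livers (1.33 ± 0.14, adjusted p = 0.000385). The difference of the genotype contrast between injury and H2O, tested as an interaction in the same model, passed for 4760 members (41.5%, beside 36.0% of all genes tested), and for 4670 of the 6875 called under injury. Without injured floxed replicate 1 it passed for 2929 members. It passed for 25 of 27 neutrophil, 21 of 25 chemokine, 24 of 28 immediate early, 17 of 33 acute phase and 13 of 24 unfolded protein response members. Lyz2 passed the interaction (3.45 ± 0.57, adjusted p = 0.00452), having 5.27 and 9.92 FPKM in H2O-treated KO livers, against 33.7 and 72.4 FPKM in H2O-treated floxed livers.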

How the data were processed

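Livers of 8 samples in 4 groups were sequenced as bulk RNA, with NEBNext Ultra libraries on an Illumina NovaSeq instrument per the labels. The authors deposited 1 table of FPKM with 1 column per library, matched to samples by their descriptions. The submitters' processing notes name DESeq2 3.15 and GRCm39, and the aligner and counting tool were not given there. Multiplied by exon length (GENCODE M21 annotation), 98.1% to 98.4% of the values in each library were within 0.01 of a whole number of fragments, which gave the fragment totals, and 1 fragment per kb is worth 0.0403 to 0.0544 FPKM.

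Values were used as log2(FPKM + 1), which shrinks changes of low genes, with the deposited scaling. The 13708 genes that reached 1 FPKM in at least 2 of 8 libraries were tested with limma 3.58.1 (R 4.3.3), with a mean for each of 4 groups, a variance trend, two-sided tests and Benjamini-Hochberg adjustment over all 13708 genes. Sums were made in Python 3.11.15. The test was checked on simulated data with far fewer changed genes than were called here and no trend on length. That check says nothing of the calls under the conditions of these data. The members, gene lists and naming rule were chosen with earlier results of these data known. The rule names Glul and Lyz2, the 15 largest rises and falls by log2 difference and the 10 largest by FPKM among called genes without overlap of the groups, the 6 members of each list with the smallest p, called members that go against their list, and a panel of liver and inflammation genes. Names outside it are Hspa5 and the ERSE genes Derl3, Calr, Canx, Dnajc3, Ero1b and Creld2, chosen after their values were seen. Some genes that the rule names are not reported here. Alternatives were other pseudocounts, filters, scalings, variance models, a replicate block and leaving out each library.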

Additional observations from a re-analysis of the deposited data

Results flagged for a closer look

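The log2 difference between KO and floxed livers was not the same under injury and under H2O for 4760 of the 11483 members (41.5%), by the interaction of the limma model (injury contrast minus H2O contrast, adjusted p under 0.05), and for 2929 without injured floxed replicate 1. Among the genes named with a log2 difference, 214 passed. Positive values mean that KO minus floxed was greater under injury than under H2O. For Glul the value was -1.86, with a difference of -1.82 under injury and 0.05 under H2O.

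Among chemokine and cytokine genes the interaction was 6.42 for Cxcl10, 4.18 for Ccl2, 4.17 for Ccl4, 4.13 for Cxcl2, 3.90 for Ccl7, 3.61 for Csf3, 3.53 for Cxcl11, 3.25 for Il1b, 2.80 for Ccl5, 2.58 for Ebi3, 2.43 for Ccl19, 2.29 for Csf1, 2.07 for Il6, 1.95 for Ltb, 1.92 for Tnf and 1.84 for Il11. Further values were 1.19 for Il1rn and -1.72 for Il33. Genes of NF-kB, interferon and macrophage activation gave 3.02 for Oas2, 2.95 for Irf8, 2.93 for Mx1, 2.80 for Nfkbia, 2.76 for Acod1, 2.74 for Nos2, 2.74 for Relb, 2.72 for Cd274, 2.71 for Mx2, 2.56 for Tnip1, 2.50 for Tap1, 2.46 for Nfkb1, 2.38 for Nfkb2, 2.08 for Cd40, 1.76 for Socs1 and 1.56 for Slamf7. Further values were 1.17 for Socs3 and -1.09 for Lbp. Among immediate early and YAP target genes the interaction was 5.42 for Ccn1, 3.79 for Fos, 3.71 for Thbs1, 3.70 for Atf3, 3.44 for Dusp5, 3.11 for Ier2, 3.02 for Maff, 3.0 for Ccn2, 2.89 for Klf2, 2.73 for Inhbb, 2.62 for Tgfb1, 2.29 for Dusp2, 2.08 for Ereg and -1.87 for Fst. Neutrophil, monocyte and Kupffer cell genes gave 3.69 for C1qb, 3.62 for C1qa, 3.53 for C1qc, 3.45 for Lyz2, 3.14 for S100a8, 3.10 for Clec4f, 2.78 for Fcgr1, 2.69 for Ncf4, 2.59 for Id3, 2.57 for Ncf1, 2.51 for Asprv1, 2.43 for Cd5l, 2.42 for S100a6, 2.39 for Clec4d, 2.34 for Retnlg and 2.32 for Il1r2. Further values were 2.25 for Stfa2l1, 2.02 for Trem1, 2.01 for Spic, 1.82 for Adgre1, -0.91 for C6 and -1.88 for Fn1. Among lymphocyte and dendritic cell genes the interaction was 3.40 for Igkc, 2.56 for Gzmb, 2.47 for Batf3, 2.26 for Cd79a, 2.06 for Gzma, 1.93 for Fscn1, 1.83 for Lck, 1.75 for H2-Ab1, 1.74 for Cd74, 1.69 for Ccr7 and 1.57 for Il2rb. Endothelial, clotting and blood genes gave 8.11 for Hbb-bt, 7.98 for Hbb-bs, 7.71 for Hba-a1, 6.60 for Hba-a2, 3.83 for Apold1, 3.31 for Cdh5, 3.28 for F3, 3.08 for Ppbp, 2.96 for Pf4, 2.95 for Stab1, 2.89 for Plaur, 2.85 for Thbd, 2.60 for Lyve1, 2.45 for Icam2, 2.24 for Dnase1l3 and 2.23 for Itga2b. Further values were 2.09 for Eng and 1.95 for Angpt2.

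Among stellate cell and cholangiocyte genes the interaction was 3.03 for Ecm1, 2.74 for Vim, 2.05 for Timp1, 1.99 for Anxa2, 1.85 for Acta2, 1.72 for Cldn4, 1.33 for Sox9 and 1.19 for Krt19. Genes of cell death and p53 gave 5.03 for Gadd45b, 2.05 for Birc3, 2.03 for Ripk3, 1.96 for Mefv, 1.94 for Nlrp3, 1.61 for Casp4, 1.57 for Traf1, 1.56 for Pmaip1, -0.84 for Fadd, -1.16 for Zmat3, -1.23 for Eda2r, -1.66 for Tnfrsf10b, -2.06 for Nlrp12 and -2.86 for Ccng1. Among acute phase and plasma protein genes the interaction was 2.65 for Apoe, 2.35 for Apoa2, 2.25 for Apoc1, 2.11 for Apoa1, 1.99 for Apoc3, 1.93 for Rbp4, -0.77 for F5, -0.89 for F9, -1.20 for Apob, -1.79 for Serpina3n, -1.88 for Orm1, -1.91 for Fgb, -2.07 for Fga, -2.12 for Itih3, -2.16 for Steap4 and -2.26 for Serpina10. Further values were -2.40 for Serpina3m and -2.46 for Apcs. Genes of protein folding gave 2.39 for Ppp1r15a, -1.03 for Atf6, -1.61 for Dnajc3, -2.22 for Edem1, -2.25 for Hspa5, -2.26 for Hsp90b1, -2.36 for Pdia4, -2.40 for Creld2 and -2.87 for Dnajb9. Among hepatocyte regulators and lipid and bile acid genes the interaction was 4.11 for G0s2, 2.08 for Cyp8b1, 1.24 for Cyp2a5, 1.20 for Acacb, 1.20 for Cebpb, -1.15 for Nr1h4, -1.26 for Hmgcs1, -1.50 for Ppara, -1.63 for Cpt1a, -1.63 for Lss, -1.83 for Rxra, -2.07 for Cyp3a13, -2.28 for Cyp2c70, -2.50 for Idi1, -2.54 for Sqle and -2.72 for Baat. Genes of glucose, nitrogen and amino acid metabolism gave 3.71 for Adm, 2.81 for Pkm, 2.66 for Slc16a3, 2.19 for Slc2a1, 1.85 for Notum, 1.83 for Hk1, 1.77 for Arg2, 1.63 for Car5a, 1.46 for Slc1a5, 1.38 for Slc2a2, 1.31 for Slc3a2, 1.25 for Gpt, -0.56 for Znrf3, -0.66 for Tbx3, -0.75 for Pfas and -0.78 for Foxo1. Further values were -0.94 for Slc7a6, -1.09 for Creb3l3, -1.23 for Slc25a15, -1.59 for Gmps, -1.66 for Gpt2, -2.32 for Gfpt1 and -2.72 for Tat. Among redox, iron and clock genes the interaction was 2.83 for Nr1d1, 2.49 for Hmox1, 1.98 for Fth1, -0.83 for Txnrd1, -0.90 for Hlf and -1.50 for Tef. The other genes named gave 6.71 for 7SK, 4.64 for Hilpda, 1.43 for Fabp1, -0.98 for Ero1b, -1.70 for Calr, -2.38 for Gas6, -2.43 for Derl3, -2.94 for Reg3g, -2.95 for Reg3b, -2.95 for Syvn1, -3.0 for Nudt7, -3.01 for Tspyl2, -3.21 for Cldn2, -3.21 for Slc13a5, -3.28 for Zfp970 and -3.37 for Serpina3c. Further values were -3.59 for Rnf103 and -4.60 for B3galt1.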

How the results depend on the processing

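Of 225 genes named with a log2 difference, 215 kept their direction and their side of the threshold in each of the 23 other settings that tested them. Directions that turned were all of genes that did not pass. Alb gave -0.26 with libraries rescaled to the same total FPKM, -0.65 after quantile normalisation, -0.09 with the trend on exon length removed and -0.06 without injured KO replicate 2. Cxcl1 gave 0.26 without injured KO replicate 2, and Hif1a gave 0.13 with the length trend removed, 0.02 and 0.18 without injured KO replicate 2 or the first injured floxed library. Over the fits with 1 library left out Alb ran from -0.06 to 0.09, Cxcl1 from -0.52 to 0.26 and Hif1a from -0.42 to 0.18. The cause was not tested.

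The count of members called under injury ran between 4885 and 6927 when 1 library was left out, with 2452 to 3326 higher and 2433 to 3601 lower. A group with 1 library left borrows its spread from the other groups. With a mean of at least 5 FPKM, which leaves 5583 members, it was 3390, with 1732 higher and 1658 lower, and 17 under H2O and 2435 for the interaction. With no filter the interaction passed for 2885 members, and for 2929 to 4797 members when 1 library was left out. Under H2O the count was 6 with a pseudocount of 0.1 and 14 with voom, and 0 with only the groups compared or with the replicate block, and it ran from 0 to 1 without 1 library. Of the called members 36.6% were higher after rescaling to equal totals, 53.4% when scaled without mitochondrial and haemoglobin genes, 53.9% with the length trend removed and 48.3% as deposited. Of 86 list counts, 22 stayed within 1.5 times under every setting. Settings that leave genes out, such as that without mitochondrial and haemoglobin genes, lower some list counts by that alone.

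The labels give no pairing beyond the replicate numbers in the titles. Deviations of same-numbered libraries from their group means had a correlation of -0.104 between injured KO and injured floxed livers and 0.27 between H2O-treated KO and floxed livers, and lay between these values for the other pairs of groups. With the replicate block 6725 members were called, and with the injured floxed numbers crossed, a choice made after the values were seen, 6827 under injury and 0 under H2O. The rescaling to equal totals and the removal of the length trend were also chosen after the values were seen. With 2 libraries a group, small differences may have been missed.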

Other observations

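The gene families described here were chosen after the values were seen. Of 85 genes of cytosolic ribosomal proteins, which build the ribosome, 78 were higher and 1 lower in injured KO livers, relative to injured floxed livers. Their median log2 difference was 1.45 under injury and -0.14 under H2O. Of 37 genes for subunits of NADH dehydrogenase, the first complex of the respiratory chain, 31 were higher and 1 lower (median 1.24). Over all members the shares were 28.9% higher and 31.0% lower. Both families are short, with median exon lengths of 1739 and 1495 bases. With the trend on length removed, 72 ribosomal protein genes were higher and 1 lower, and 32 NADH dehydrogenase genes were higher and 0 lower.

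Zinc finger genes, with a median exon length of 4781 bases, were higher in 17 and lower in 113 of 194 members (median -0.56), and with the trend removed in 17 and 89. Proteasome subunit genes were higher in 7 and lower in 11 of 37 members (18.9% and 29.7%, median -0.17). The scaling without mitochondrial and haemoglobin genes left out the genes encoded in the mitochondrial genome, and so gives no result for them. With the deposited scaling, genes of the mitochondrially encoded list were higher in 6 and lower in 0 of 13 members. The count was 2 or 3 when any 1 of the 4 injured libraries was left out.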
